A study of Mus musculus with 6 samples.

Results

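The genes described here are the 10 that encode the vascular endothelial growth factors (VEGF), their receptors, the angiopoietins and the Tie receptors, namely Vegfa, Vegfb, Vegfc, Flt1, Kdr, Flt4, Tek, Tie1, Angpt1 and Angpt2. Each was found by its symbol in the authors' deposited expression table, so that all 10 of 10 were present among the 23284 genes listed. The RNA-seq compared the heart ventricles of 3 WT with those of 3 KD embryos, all of strain C57BL/6 by the labels (the methods name the substrain as C57BL/6 J) and taken at E9.5, to ask which genes are affected by knockdown of Tbx5ua, the lncRNA transcribed divergently from Tbx5. All embryos were tetraploid chimeras, in which the embryo proper derives from injected ES cells and the host embryo gives the extraembryonic tissue. WT embryos came from ES cells that the paper calls WT, without saying whether these went through the same transfection and cloning. KD embryos came from ES cells labelled Tbx5ua -/-, in which polyadenylation signals inserted into both alleles stop transcription early, and the table names this group KO. The edited ES cells were made clonal by picking single colonies, and the labels do not say which line each embryo came from.

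The table gives each gene a single value per group, in FPKM, which is the number of fragments of a gene adjusted for exon length and for the size of the library. It gives no values of single embryos, so no SD could be computed. The authors' own comparison columns were not used, no difference below was tested here, and these group values do not show whether any exceeds the spread between embryos. The depth of the libraries is unknown for the same reason. Ratios are KD over WT on the log2 scale with no pseudocount, over the 11548 genes that had at least 1 FPKM in either group and a value above 0 in both. Their median log2 ratio was 0.00, and the interquartile range ran from -0.15 to 0.16. In whole ventricles a change in the number of cells that express a gene and a change in RNA per cell cannot be told apart. The targeted transcript Tbx5ua is not analysed here, and the group labels were not checked against it.

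VEGF ligands are secreted proteins that bind receptor tyrosine kinases on endothelial cells and drive the growth and branching of vessels. Kdr (VEGFR2) is the main signalling receptor for Vegfa, Flt1 (VEGFR1) binds Vegfa and Vegfb and can act as a decoy, and Flt4 (VEGFR3) is the receptor for Vegfc. Angpt1 activates the endothelial receptor Tek (Tie2), Angpt2 can oppose it, and Tie1 is a related receptor that forms complexes with Tek. In the embryonic ventricle, endocardial cells carry these receptors and face a myocardium that secretes ligands, and loss of Vegfa, Kdr, Tek or Angpt1 in mice disturbs the formation of vessels or of the endocardium and trabeculae.

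The 10 genes all had at least 1 FPKM in both groups, and 8 of them a higher value in KD, by less than 1.5-fold. At a threshold of 1.5-fold in either direction, 0 of the 10 genes differed, beside 7.72% of the 11548 genes compared, a share at which few or none of 10 genes would pass. The 2 genes with a lower value in KD were Tek and Angpt2. Of all genes compared, 50.9% were higher in KD. The median log2 ratio of the 10 genes was 0.08. Regardless of direction, the median distance from equality was 0.20 on the log2 scale for the 10 genes and 0.15 for all genes compared. Individual values ran from -0.22 for Angpt2 to 0.39 for Vegfb. At 2-fold the count was again 0 of 10, beside 2.41% of all genes. At a lower threshold, with the higher group at least 25% above the other, which 21.8% of all genes passed, the count was 1 of 10, Vegfb, at 1.31-fold, and Vegfa, at 1.23-fold, lay just under it.

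**Figure D1:**
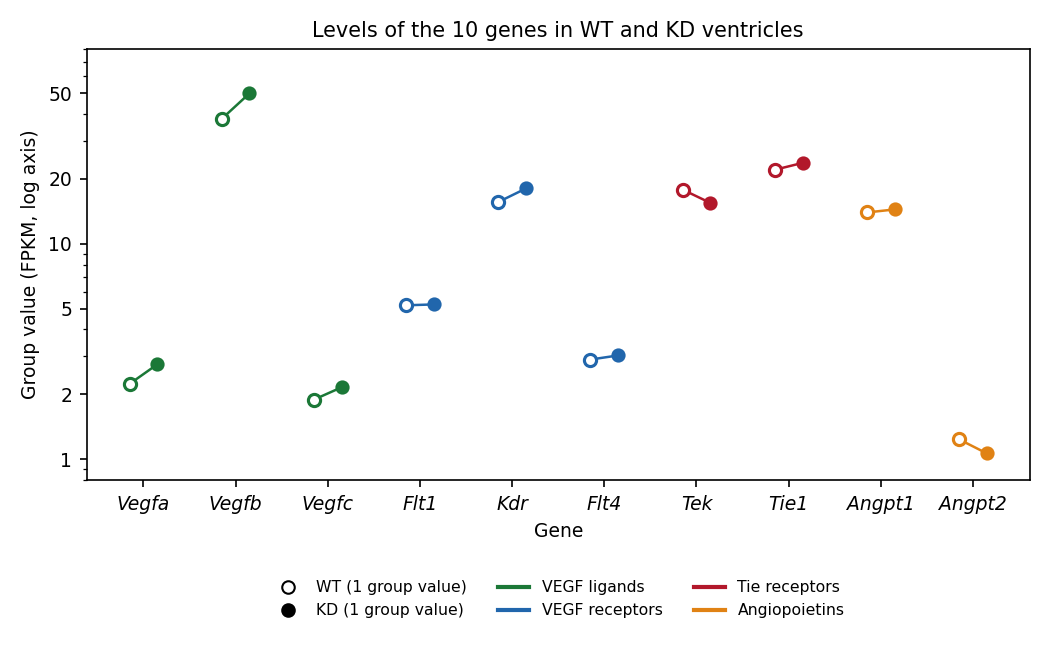
Group values in FPKM (log axis) of the 10 genes in WT (open circles) and KD (filled circles) ventricles, each a single value made by the authors from 3 embryos, with no error available. Levels span from 1.06 FPKM for Angpt2 to 49.9 FPKM for Vegfb, and only the ranges of Kdr and Tek overlap.

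Levels of the 10 genes were spread widely, and the ranges between the WT and KD values overlapped only for Kdr and Tek. In WT ventricles the order from highest to lowest was Vegfb, Tie1, Tek, Kdr, Angpt1, Flt1, Flt4, Vegfa, Vegfc and Angpt2. In KD ventricles Kdr and Tek exchanged places and the other 8 kept theirs. Since no spread between embryos is given, it cannot be said which neighbours in this order differ beyond it, and the values of Kdr and Tek were the ones whose order depended on the group.

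Among the ligands, Vegfb stood far above the others. Vegfb (chromosome 19, from 6982472 to 6987651 on mm10, minus strand), a ligand of Flt1, had 38.0 FPKM in WT against 49.9 FPKM in KD, a 1.31-fold higher value and the largest difference among the 10 genes. Its log2 ratio of 0.39 lay above that of 90.7% of all genes compared. Genes of its level varied less than genes of low level, and of the 2135 genes with a mean of 25 to 100 FPKM, 3.61% differed by as much as Vegfb in either direction. This describes the place of Vegfb among genes and is no test of the groups.

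Vegfa and Vegfc had low levels. Vegfa (chromosome 17, from 46016993 to 46032377, minus strand), the principal angiogenic ligand and a target of the hypoxia-inducible factors, had 2.23 FPKM in WT against 2.75 FPKM in KD, a log2 ratio of 0.30. Vegfc (chromosome 8, from 54077532 to 54186454, plus strand), known for its role in lymphatic vessels, had 1.89 FPKM in WT against 2.15 FPKM in KD, a log2 ratio of 0.19. Both ratios lay inside the interquartile range of the 1848 genes with a mean of 1 to 2.5 FPKM, which ran from -0.24 to 0.33. At that level 20.2% of genes were at least 1.5-fold apart, so differences of this size were common among genes of such low level.

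All 3 ligands were higher in KD, and their proportions were similar. Their summed value was 42.1 FPKM in WT against 54.8 FPKM in KD, and Vegfb alone made up 90.2% of it in WT and 91.0% in KD. Vegfb exceeded Vegfa 17.0-fold in WT and 18.1-fold in KD. The difference in the sum was mostly that of Vegfb, which differed by 11.9 FPKM between the groups, against 0.519 FPKM for Vegfa and 0.266 FPKM for Vegfc.

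The VEGF receptors kept the same order in both groups, with Kdr above Flt1 and Flt1 above Flt4. Kdr (chromosome 5, from 75933270 to 75978428, minus strand) had 15.6 FPKM in WT against 18.1 FPKM in KD, 1.16-fold higher with a log2 ratio of 0.21. Of the 2382 genes with a mean of 10 to 25 FPKM, 30.0% differed by as much as Kdr. Flt1 (chromosome 5, from 147562196 to 147725988, minus strand) had 5.18 FPKM in WT against 5.23 FPKM in KD, with a log2 ratio of 0.01, the smallest difference of the 10 genes. Of all genes compared, 95.0% were farther from equality than Flt1. Flt4 (chromosome 11, from 49609679 to 49652739, plus strand) had 2.90 FPKM in WT against 3.03 FPKM in KD, a log2 ratio of 0.06.

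Kdr thus had the larger difference of the receptors of Vegfa, and Flt1 almost none. The ratio of Kdr to Flt1 was 3.02 in WT and 3.45 in KD. Kdr made up 65.9% of the summed VEGF receptor value in WT and 68.6% in KD, and Flt1 21.8% and 19.9%. The sum itself was 23.7 FPKM in WT against 26.3 FPKM in KD.

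The Tie receptors differed in opposite directions. Tek (chromosome 4, from 94739300 to 94874939, plus strand), the angiopoietin receptor, had 17.8 FPKM in WT against 15.5 FPKM in KD, 1.15-fold lower with a log2 ratio of -0.20. Tie1 (chromosome 4, from 118471191 to 118489849, minus strand) had 22.1 FPKM in WT against 23.7 FPKM in KD, a log2 ratio of 0.11. As deposited, Tek alone of the 5 receptors had a lower value in KD, but Flt1 was lower too, at -0.02 on the log2 scale, with both groups scaled to the same FPKM total, and Flt1 and Flt4 were lower, at -0.08 and -0.03, relative to the median of endothelial and endocardial markers. For Tek, 31.1% of the genes of its level differed by as much. The ratio of Tie1 to Tek was 1.24 in WT and 1.53 in KD, while their sum was nearly the same, at 39.9 FPKM in WT against 39.2 FPKM in KD.

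**Figure D2:**
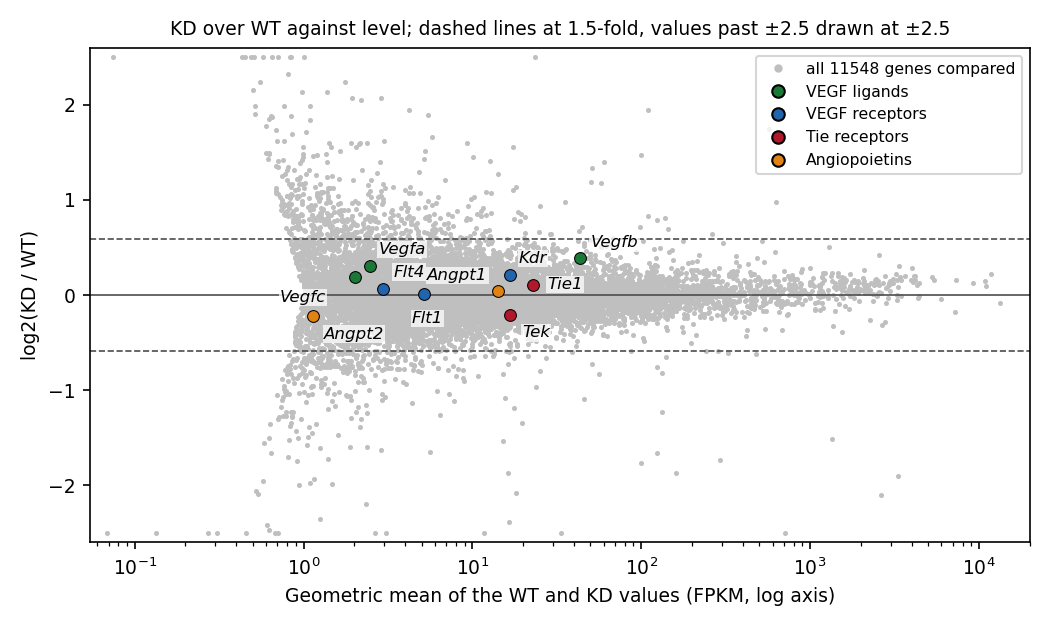
log2 ratio of KD over WT against the geometric mean of both group values in FPKM (log axis) for all 11548 genes compared (grey) and the 10 genes (coloured by role), with dashed lines at 1.5-fold and values past ±2.5 drawn at ±2.5. The grey cloud widens at low levels, all 10 genes lie between the dashed lines, and Vegfb lies nearest the edge of the cloud at its level.

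Of the angiopoietins, Angpt1 was abundant and Angpt2 scarce. Angpt1 (chromosome 15, from 42424725 to 42676795, minus strand), the activating ligand of Tek, had 14.0 FPKM in WT against 14.4 FPKM in KD, a log2 ratio of 0.05. Angpt2 (chromosome 8, minus strand) had 1.23 FPKM in WT against 1.06 FPKM in KD, the lowest level of the 10 genes, and a log2 ratio of -0.22 that lay inside the interquartile range of genes of its level. Angpt1 exceeded Angpt2 11.3-fold in WT and 13.6-fold in KD. Both values carry a limit of annotation. In the table Angpt2 is listed at a locus from 18595173 to 18803188 that it shares with Mcph1, a gene on the opposite strand, while the GENCODE annotation of this build places Angpt2 itself from 18690263 to 18741562 and gives 0 exonic bases in common. Angpt1 shares 737 exonic bases with the antisense transcript Gm17473, and Smart-Seq2 libraries do not keep the strand. The GENCODE annotation shows no other gene overlapping any of the 10.

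The upstream sequences of the genes on which these comparisons turn are shown with the ETS core GGAA, the binding letters of the ETS factors that act widely in endothelial genes. They are Vegfb, with the largest difference, the receptors Kdr and Tek, whose order differed between the groups, and the partners Flt1 and Tie1. RefSeq start sites on GRCm38.p6 were found for 8 of the 10 genes, and Angpt1 and Angpt2 have no entry. Each run holds the 250 bases before the start site, 5′ to 3′ on the strand of the gene, and capitals mark GGAA, or TTCC where the core lies on the other strand.
Vegfb, chr19:6987652-6987901, minus strand: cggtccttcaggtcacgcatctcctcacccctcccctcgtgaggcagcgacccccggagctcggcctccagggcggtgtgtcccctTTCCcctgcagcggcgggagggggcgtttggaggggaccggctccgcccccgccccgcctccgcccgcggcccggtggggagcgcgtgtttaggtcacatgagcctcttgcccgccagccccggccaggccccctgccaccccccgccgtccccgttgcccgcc
Kdr, chr5:75978456-75978705, minus strand: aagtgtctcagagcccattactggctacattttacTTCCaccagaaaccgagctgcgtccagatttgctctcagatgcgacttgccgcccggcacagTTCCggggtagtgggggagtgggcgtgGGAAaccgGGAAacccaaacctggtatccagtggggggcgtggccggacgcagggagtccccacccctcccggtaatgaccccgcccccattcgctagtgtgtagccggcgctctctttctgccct
Flt1, chr5:147726012-147726261, minus strand: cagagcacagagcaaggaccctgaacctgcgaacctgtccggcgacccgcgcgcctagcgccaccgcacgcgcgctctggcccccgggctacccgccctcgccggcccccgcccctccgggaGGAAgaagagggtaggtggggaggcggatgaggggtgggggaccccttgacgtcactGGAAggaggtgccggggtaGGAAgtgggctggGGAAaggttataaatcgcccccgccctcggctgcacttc
Tek, chr4:94739039-94739288, plus strand: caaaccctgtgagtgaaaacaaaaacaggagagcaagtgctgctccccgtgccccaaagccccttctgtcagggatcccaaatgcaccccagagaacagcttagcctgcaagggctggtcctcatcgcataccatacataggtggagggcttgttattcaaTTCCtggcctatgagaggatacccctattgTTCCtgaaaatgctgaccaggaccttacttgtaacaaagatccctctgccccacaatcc
Tie1, chr4:118489850-118490099, minus strand: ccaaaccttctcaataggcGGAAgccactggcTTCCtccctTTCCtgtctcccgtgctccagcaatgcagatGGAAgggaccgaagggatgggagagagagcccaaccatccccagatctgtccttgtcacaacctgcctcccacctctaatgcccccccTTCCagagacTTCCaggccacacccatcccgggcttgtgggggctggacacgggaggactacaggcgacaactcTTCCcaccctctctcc

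The ETS core was present in all 8 upstream windows, as it was in 93.4% of the 32851 windows of the same length in the reference. On both strands together it occurred 7 times before Tie1, 4 times before Kdr, 4 times before Flt1, 2 times before Tek and 1 time before Vegfb, beside a median of 3 over all windows. The letters ACGTG of the hypoxia response core were in 0 of the 8 windows and in 16.6% of all, and the variant GCGTG was in those of Vegfb, Flt1 and Kdr and in 28.2% of all. Sequence farther upstream was not searched, and for Vegfa only 1 of the 2 start sites in the reference was used. The window before Flt1 alone held the letters TATAAA of a core promoter element, beginning 31 bases before the start, and the cyclic AMP response element TGACGTCA, beginning 81 bases before it. TATAAA was in 12.4% and TGACGTCA in 1.55% of all windows, and both were searched after the sequences had been read. These matches describe letters in the windows only, and neither the number of ETS cores nor any other motif was compared with the expression values.

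The other genes of the pathway were taken from lists of ligands, co-receptors and processing enzymes, of intracellular signalling, of oxygen sensing and of VEGF-induced genes. Of all genes compared, 4.62% were at least 1.5-fold higher and 3.1% at least 1.5-fold lower in KD. Among other ligands, co-receptors and processing enzymes, 12 of 13 symbols were in the table and 7 could be compared, of which 1 was at least 1.5-fold higher and 1 lower. Of the 7, 3 had a higher and 4 a lower value in KD, with a median log2 ratio of -0.11. Ptprb, the phosphatase that removes phosphate from Tek, had 1.95 FPKM in WT against 1.19 FPKM in KD, 1.64-fold lower. Pcsk5, a proprotein convertase able to process Vegfc, had 2.65 FPKM in WT against 4.39 FPKM in KD. At the level of Ptprb, a mean of 1 to 2.5 FPKM, 20.2% of genes were at least 1.5-fold apart in either direction. At that of Pcsk5, 2.5 to 5 FPKM, the share was 8.54%. The co-receptor Nrp1, which binds Vegfa together with Kdr, had 20.8 FPKM in WT against 22.6 FPKM in KD. The VEGF ligand gene Figf (Vegfd) was below the minimum, with 0.204 FPKM in WT against 0.231 FPKM in KD, and Angpt4 was below it as well. Pgf, a ligand of Flt1, had 2.85 FPKM in WT against 3.27 FPKM in KD. The remaining members compared were lower in KD, with log2 ratios of -0.11 for the co-receptor Nrp2, -0.21 for the convertase Furin and -0.18 for Hspg2, which encodes the heparan sulfate proteoglycan perlecan.

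Downstream of the receptors, 24 of 25 intracellular signalling genes were within 1.5-fold, with a median log2 ratio of 0.08. The exception was Dok2, an adaptor that docks on Tek, which had 0.341 FPKM in WT against 1.249 FPKM in KD. Dok2 reached the minimum of 1 FPKM only through its KD value, and it is also known as a gene of blood cells. Of the oxygen sensing and hypoxia target genes, which include the regulators of Vegfa, 0 of 13 were 1.5-fold apart, and the median log2 ratio was 0.05. Ldha, the highest of them, had 3453 FPKM in WT against 3428 FPKM in KD.

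Of the genes induced by VEGF or found in endothelial tip cells, 10 of 14 could be compared, 3 were at least 1.5-fold higher in KD and 0 lower, and the median log2 ratio was 0.12. Of the 10, 6 had a higher and 4 a lower value in KD. Those past 1.5-fold were Kcne3, a potassium channel subunit, with 0.204 FPKM in WT against 2.09 FPKM in KD, Egr1, an immediate early transcription factor, with 8.41 FPKM in WT against 15.9 FPKM in KD, and Nrarp, a Notch feedback gene, with 1.62 FPKM in WT against 2.92 FPKM in KD. Kcne3 reached the minimum only through its KD value, so that its direction was fixed by the minimum. Without it, 9 genes were left, with 5 higher and 4 lower in KD, 2 of them at least 1.5-fold higher, and a median log2 ratio of 0.01. Dll4, the Notch ligand of tip cells, had 4.74 FPKM in WT against 5.59 FPKM in KD, and Unc5b had 4.75 FPKM in WT against 4.77 FPKM in KD. Plaur had a log2 ratio of 0.29. The 4 lower genes were Aplnr, Rcan1, Nr4a1 and Angptl4, with log2 ratios of -0.08, -0.28, -0.23 and -0.31. Esm1 was listed at 0 in WT and had 0.0360 FPKM in KD.

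**Figure D3:**
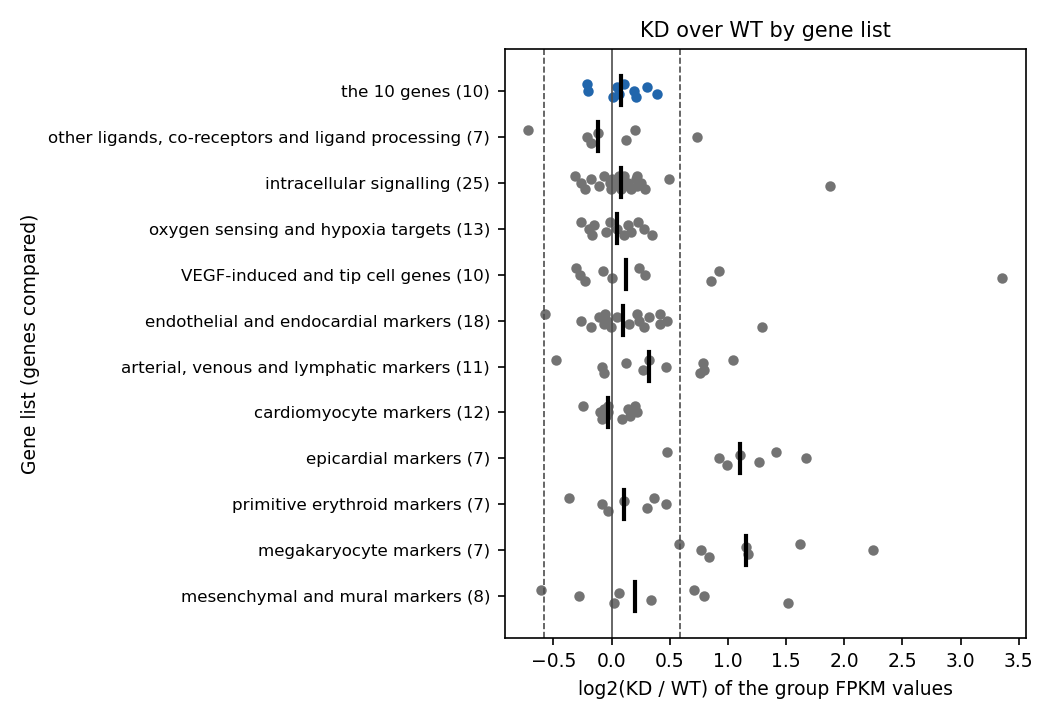
log2 ratio of KD over WT for each gene with at least 1 FPKM in either group, by gene list, with the number of genes compared in parentheses, black bars at the list medians, dashed lines at 1.5-fold and a solid line at the median of all genes compared. The 10 genes (blue) and the cardiomyocyte and hypoxia lists lie between the dashed lines, while most epicardial and megakaryocyte markers lie to the right of them.

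The labelled tissue was checked against its markers, since the receptors are read out from the endothelial cells it holds. The summed level of 12 cardiomyocyte markers was 43210 FPKM in WT against 44802 FPKM in KD, 0 of the 12 were 1.5-fold apart, and none was at 0. Myl7, the highest of them, had 13643.1 FPKM in WT against 12907 FPKM in KD. Among all genes compared, 7.72% were at least 1.5-fold apart, a share at which few or none of 12 genes would pass. The summed level of 18 endothelial and endocardial markers was 614.8 FPKM in WT against 718.4 FPKM in KD, and none was at 0. Of these 18, 10 were higher and 8 lower in KD, with a median log2 ratio of 0.10, near the 0.08 of the 10 genes. Cldn5, a tight junction gene, was the only one past 1.5-fold, with 3.07 FPKM in WT against 7.51 FPKM in KD. Relative to the median of these markers, the log2 ratio was 0.30 for Vegfb, 0.11 for Kdr, 0.01 for Tie1 and -0.30 for Tek, and 5 of the 10 genes were above and 5 below it. The log2 ratios of the markers ran from -0.57 to 1.29, and their sum was 1.17-fold higher in KD, so another summary of them would move these values. This reference is endothelial, whereas the ligands were described above as secreted by the myocardium.

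Markers of the epicardium and of megakaryocytes, other cells that can secrete VEGF or angiopoietins, were also examined. Both lists were chosen with earlier results of these data known. Among all genes compared, 50.9% were higher in KD and 4.62% at least 1.5-fold higher. All 7 epicardial markers were higher in KD, 6 of them at least 1.5-fold, and their summed level was 50.3 FPKM in WT against 106.2 FPKM in KD. Examples were Upk3b, with 7.80 FPKM in WT against 20.7 FPKM in KD, and Tcf21, with 11.9 FPKM in WT against 25.5 FPKM in KD. The other epicardial markers past 1.5-fold were Aldh1a1, Aldh1a2, Tbx18 and Upk1b. Aldh1a2, with 0.872 FPKM in WT against 1.74 FPKM in KD, reached the minimum only through KD, and 5 of the 6 remain without it. All 7 megakaryocyte markers were higher in KD as well, 6 of them at least 1.5-fold, with a summed level of 48.2 FPKM in WT against 108.6 FPKM in KD. Pf4, the most abundant, had 38.5 FPKM in WT against 86.9 FPKM in KD, and the others past 1.5-fold were Gp9, Gp1bb, Gp1ba, Tubb1 and Ppbp. Gp1bb is listed at a locus that it shares with Sept5. Gp9, with 0.804 FPKM in WT against 3.81 FPKM in KD, and Gp1ba, with 0.661 FPKM in WT against 1.18 FPKM in KD, reached the minimum only through KD, and 4 of the 6 remain without them. None of these markers was at 0 in either group. Their part in the values of Vegfb, Angpt1 or any of the 10 genes was not tested.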

How the data were processed

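Ventricular RNA (10 ng) was made into Smart-Seq2 libraries with 12 preamplification and 9 enrichment cycles and sequenced from a single end. The submitters' processing notes name TopHat, Bowtie2, Cuffdiff and mm10, and versions are not given in the sources used here. The authors deposited 1 FPKM value per gene and group. Their own comparison columns (fold change, test statistic, p-value, q-value and call) were not used. The table holds 0 columns of single embryos, so the depth and the precision per embryo are unknown and no test was made. Start positions are given with 1 added to those of the table.

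Ratios of the deposited FPKM values were taken over genes with at least 1 FPKM in either group. The threshold was 1.5-fold, with 25% and 2-fold as alternatives, and with other minima, pseudocounts and scalings. The 10 genes, the lists and the thresholds were chosen with earlier results of these data known. From the lists, genes past 1.5-fold were named, and the highest WT gene where a list had none. The members of the ligand and VEGF-induced lists that are within 1.5-fold, and Figf, Angpt4, Esm1, Prox1, Efnb2 and Notch1, were named after their values were seen. Similarity of pattern was not computed, since 2 group values give no pattern. The counting was tested on simulated ratios. Python 3.11.15, NumPy 2.4.6, pandas 2.3.3 and Matplotlib 3.10.9 were used.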

Additional observations from a re-analysis of the deposited data

How the results depend on the processing

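The count of genes at least 1.5-fold apart stayed at 0 with pseudocounts of 0.1 and 1, with no minimum, with a minimum of 5 FPKM, at 2-fold and under each scaling, and was 1, Vegfb, at the threshold of 25%. The pseudocounts, the minima and the 2-fold threshold could not have raised the 0. Pseudocounts shrink ratios, and all 10 genes already passed the minimum. The scalings shifted the log2 ratios by at most 0.10, and the largest distance from equality in any setting was 0.39. The count higher in KD was 8 in most alternatives, of which the pseudocounts and the setting without a minimum could not change it. It was 5 with a minimum of 5 FPKM, where 6 genes remain, 7 with both groups scaled to the same FPKM total, and 5 relative to the median of endothelial and endocardial markers. The median log2 ratio of 0.08 became 0.07 with a pseudocount of 1, 0.05 with the same FPKM total, -0.01 relative to the endothelial and endocardial markers, whose own median was 0.10, and 0.11 without Angpt2. 7 of the 10 genes kept their sign in each alternative, and Flt1, Flt4 and Angpt1 changed sign in some, with values from -0.08 to -0.02. Leaving out Angpt2 for its shared locus was chosen after seeing the data. No paired analysis was possible because single embryos have no columns in the values analysed here, and for the same reason the alternatives without each replicate and with a replicate block were not run. With depth unknown, the precision of Vegfa, Vegfc, Flt4 and Angpt2, whose levels are low, cannot be given.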

Other observations

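Vessel identity genes, which the comparisons above do not use, had a median log2 ratio of 0.32 over 11 arterial, venous and lymphatic markers, 8 of them higher in KD. Among all genes compared, the shares were 50.9% higher and 4.62% at least 1.5-fold higher. At least 1.5-fold higher were the arterial connexin Gja5, with 7.02 FPKM in WT against 12.1 FPKM in KD, the Notch target Hey1, with 13.3 and 23.1 FPKM, the venous factor Nr2f2, with 2.01 and 4.15 FPKM, and the lymphatic receptor Lyve1, with 1.73 and 2.92 FPKM. The 3 lower genes were the arterial markers Efnb2 and Notch1, with log2 ratios of -0.06 and -0.08, and Prox1. Several genes of this list are expressed outside vessels too. Nr2f2 shares its locus in the table with B130024G19Rik. Prox1, which marks lymphatic endothelium and is also made in cardiomyocytes, had 7.94 FPKM in WT against 5.69 FPKM in KD.

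Of 8 mesenchymal and mural markers compared, Pdgfra (0.969 FPKM in WT against 2.78 FPKM in KD), Snai2 and Twist1 were at least 1.5-fold higher, Pdgfra having reached the minimum only through KD, and Tagln (400.3 FPKM in WT against 263.2 FPKM in KD) was at least 1.5-fold lower. Tagln is listed at a locus that it shares with Pcsk7 and Rnf214. Among all genes compared, 4.62% were at least 1.5-fold higher and 3.1% at least 1.5-fold lower. Of 7 primitive erythroid markers 0 were 1.5-fold apart, beside 7.72% of all genes compared, at which few or none of 7 would pass. The highest, Hba-x, had 4401 FPKM in WT against 4318 FPKM in KD, and their summed level was 11451 FPKM in WT against 11529 FPKM in KD. Hepatic and yolk sac markers and macrophage and leukocyte markers were each below the minimum throughout, with sums of 0.607 and 1.37 FPKM, and of 2.40 and 0.820 FPKM, in WT and KD.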
